A study of Homo sapiens with 131 samples.

Results

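PURPL, MALAT1, NEAT1, KCNQ1OT1, GAS5 and SNHG1 are 6 long non-coding RNAs, found by name among the 60708 genes of the expression table. HAP1 is a near-haploid human line. In mid-S phase a locus of such a cell is therefore present as 1 copy or, once replicated, as 2 copies. Single mid-S HAP1 cells were examined by scRR-seq, which separates the RNA of a sorted cell (supernatant, mainly cytoplasmic) from its DNA (held on beads) and makes a library from each. All cells were labelled as HAP1, with no further genotype and no treatment in the labels. The tables hold 56 of the 63 labelled mid-S cells. The other mid-S cells and 5 G1 DNA libraries were not analysed here. There was 1 biological experiment, and the spread between its cells says nothing of others. PURPL was chosen because its RNA had differed between the copy states in these same cells, and its values by copy state are given as a description only.

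Long non-coding RNAs act without being translated. MALAT1 is enriched in nuclear speckles, which store splicing factors. NEAT1 is the scaffold RNA of paraspeckles, nuclear bodies built around proteins such as SFPQ and NONO. KCNQ1OT1 is transcribed antisense to KCNQ1 from the paternal allele and silences neighboring imprinted genes. GAS5 and SNHG1 are host transcripts whose introns are processed into small nucleolar RNAs, which guide the modification of ribosomal RNA. PURPL is known for binding the nucleolar protein MYBBP1A.

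In hg38, PURPL (ENSG00000250337.7) spans chr5:27217714-27496994 on the plus strand, a locus of 279281 bp of which exons annotated in GENCODE version 44 cover 8.15%. MALAT1 (ENSG00000251562.8) lies at chr11:65497688-65506516 and NEAT1 (ENSG00000245532.9) at chr11:65422774-65445540, both on the plus strand. KCNQ1OT1 (ENSG00000269821.1) lies at chr11:2608328-2699994 on the minus strand, inside KCNQ1. SNHG1 (ENSG00000255717.7) lies at chr11:62851984-62855953 on the minus strand. GAS5 (ENSG00000234741.8) lies at chr1:173858559-173868882 on the minus strand, and since the authors left chromosome 1 out of the DNA analysis it has no copy state. The remaining 5 genes have one.

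The 6 RNAs covered a wide range of levels. MALAT1 had the highest level, at 754 TPM in the lowest cell, 2592 in the median cell and 8152 in the highest, which placed it 30th of 12302 genes that reached 1 TPM in over 50% of cells. TPM is a level scaled to transcript length and to a common total per cell. SNHG1 ran from 302 to 1855 TPM with a median of 802. GAS5 ran from 148 to 1545 TPM with a median of 376. The order of these levels was shared by most cells, since MALAT1 was above SNHG1 in 53 of 56 cells and SNHG1 above GAS5 in 48.

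NEAT1 ran from 0.23 to 561 TPM with a median of 104.2, and a single cell lay under 1 TPM. PURPL ran from 0 to 246 TPM with a median of 41.5, and was listed at 0 in 4 cells. KCNQ1OT1 had the lowest level and ran from 0.56 to 3.78 TPM with a median of 1.37. GAS5 was above NEAT1 in 55 of 56 cells and NEAT1 above PURPL in 40, so the last 2 were less clearly ordered. KCNQ1OT1 was below PURPL in 48 cells.

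**Figure D1:**
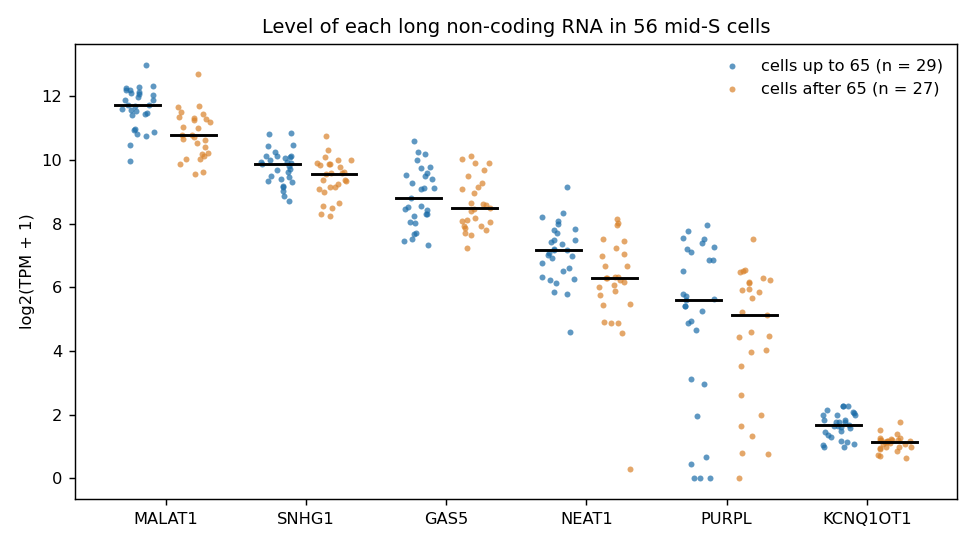
Level of the 6 RNAs as log2(TPM + 1) in each of 56 mid-S cells, with cells numbered up to 65 in blue (n = 29) and later cells in orange (n = 27). Black bars are medians, and PURPL spreads from 0 to near 8 on this scale while KCNQ1OT1 stays within a narrow band.

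PURPL was the most variable of the 6 from cell to cell. Its SD (62.6 TPM) exceeded its mean (59.4 TPM, n = 56), a coefficient of variation of 1.05. The 4542 expressed genes within 2-fold of its mean had a median coefficient of 0.618, and 97.2% of them varied less. For the other abundant members the same comparison also fell on the variable side, with coefficients of 0.745 for NEAT1 (94.6% of genes of like level below), 0.632 for GAS5 (94.3%), 0.547 for MALAT1 (89.5%) and 0.412 for SNHG1 (79.5%). KCNQ1OT1 fell at the other end. Its coefficient was 0.498, and none of the 327 genes within 2-fold of its mean was lower, against a median of 1.21. KCNQ1OT1 is annotated as exon over 91667 bp. The part of transcript length in this low spread was not tested.

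The scatter of PURPL was shared by its spliced and unspliced values. Unspliced RNA was defined by the authors as reads in the gene body that fall outside exons. The unspliced value for PURPL ran from 0.2 to 2631 estimated counts with a median of 404. By the mean of this value PURPL ranked 129th of the 10739 genes detected as unspliced in over 50% of cells. Across 56 cells, spliced and unspliced PURPL had a Spearman rho of 0.92. The median rho was 0.15 and the 99th percentile 0.69 over 5144 genes expressed in both forms, and none exceeded PURPL. The value was 0.93 in the 29 cells numbered up to 65 and 0.87 in the later 27. Both values come from the same RNA library of each cell, and exon reads can also come from RNA not yet spliced. The rho therefore does not set mature RNA alone against its precursor. For MALAT1, NEAT1, KCNQ1OT1 and SNHG1 the unspliced value was 0 in every cell. In GENCODE version 44 annotated exons cover 100% of these 4 loci, while the authors counted with an earlier version. With full coverage nothing remains after exon reads are subtracted, so these values of 0 say nothing of splicing. GAS5 was not covered by the unspliced table.

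The DNA around PURPL replicated later than that around the other 4 members with a copy state. PURPL was 2-copy in 25 of 56 cells and 1-copy in 31. Its bins held both states in 5 of these cells, and the authors averaged the bins of a gene before calling its state. The 8 bins of 40 kb over the gene were 2-copy in 41.8% to 45.5% of the 55 cells with a replication score (the percentage of bins called 2-copy) of 40% to 70%. The bins formed a local peak. The highest share, 47.3%, was reached at -77.7 kb and at -37.7 kb from the start annotated in GENCODE. The start annotated in RefSeq lies 254578 bp downstream of that one. The median share was 3.64% in bins 1000 to 2000 kb upstream and 16.4% as far downstream.

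KCNQ1OT1 was 2-copy in 42 cells, 1-copy in 12 and without a call in 2. The bins over the gene were 2-copy in 78.4% to 81.1% of cells, and within 2 Mb of its start the share ran from 12.7% to 100%. MALAT1 (54 cells 2-copy, 1 1-copy), NEAT1 (55 and 1) and SNHG1 (56 and 0) had replicated in nearly all cells, and no contrast of copy states can be made for them. The single 1-copy cell held 1701 TPM of MALAT1 and the one for NEAT1 held 70.6 TPM, both within the range of the 2-copy cells.

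**Figure D2:**
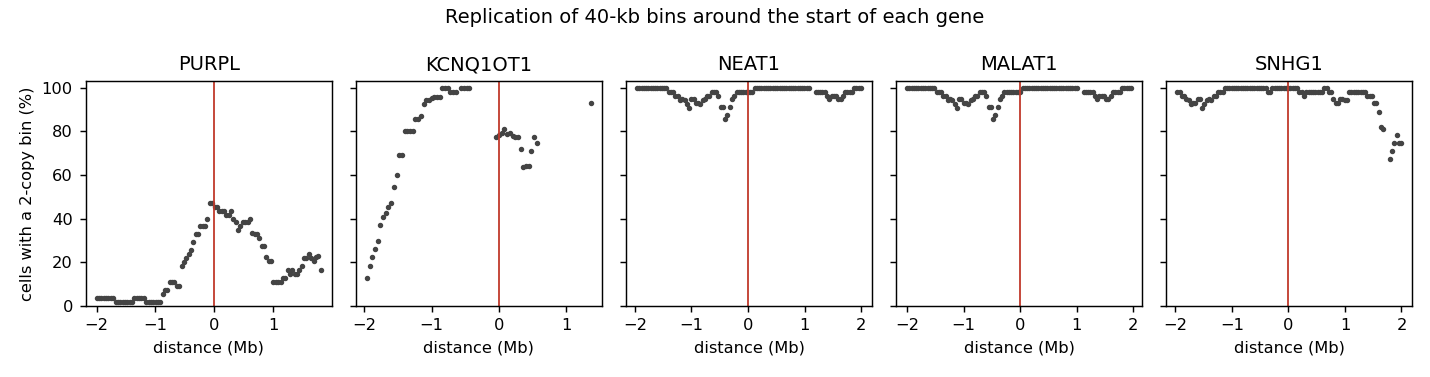
Percentage of called cells (55 cells scored 40% to 70%) in which each 40-kb bin was 2-copy, by distance of the bin from the annotated start of the gene, positive in the direction of transcription. PURPL sits on a peak that reaches 47.3%, KCNQ1OT1 near 79.2% beside a slope and a stretch without bins, and NEAT1, MALAT1 and SNHG1 near 100%.

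PURPL by copy state is described here, with no test, because the gene was chosen for this difference. The comparison asks whether a replicated locus gives more RNA than one not yet replicated. In the 24 2-copy cells spliced PURPL ran from 2.15 to 182 TPM with a median of 64.1. In the 31 1-copy cells it ran from 0 to 246 TPM with a median of 22.9, a ratio of medians of 2.79 and of means of 1.61. The ranges overlapped at the top and parted at the bottom. All 8 cells under 1 TPM were 1-copy, and so were the 3 cells above the highest 2-copy cell.

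Unspliced PURPL had a median of 684.5 estimated counts in 2-copy cells (3.2 to 2049) and 234 in 1-copy cells (0.2 to 2083), a ratio of 2.92. The 8 cells under 1 TPM held 0.45 to 5.2 unspliced counts, so both forms were nearly missing from the same cells. These 8 cells had replication scores from 40.5% to 61.4%, and 5 of them were among the cells numbered up to 65. Within that set the spliced medians were 69.5 TPM (14 2-copy cells) and 18.5 TPM (14 1-copy cells), and in the later set 64.1 TPM (10 cells) and 22.9 TPM (17 cells).

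Over all genes, 2455 could be compared in spliced RNA, and 5.82% were higher at 2 copies and 2.73% higher at 1 copy at an unadjusted p under 0.05 (two-sided Wilcoxon rank-sum test). In unspliced RNA 3159 could be compared, and these shares were 3.77% and 2.94%. After Benjamini-Hochberg adjustment 0% of genes passed in either form by the Wilcoxon test, against 210 (8.55%) and 212 (6.71%) genes at an unadjusted p under 0.05. edgeR's quasi-likelihood test on the unspliced counts gave 571 genes before and 185 after adjustment. Unlike the Wilcoxon test it scaled counts to the total of each cell, and it was fitted to each gene alone. PURPL belongs to the genes that this contrast selected, so nothing is read from its place among them.

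**Figure D3:**
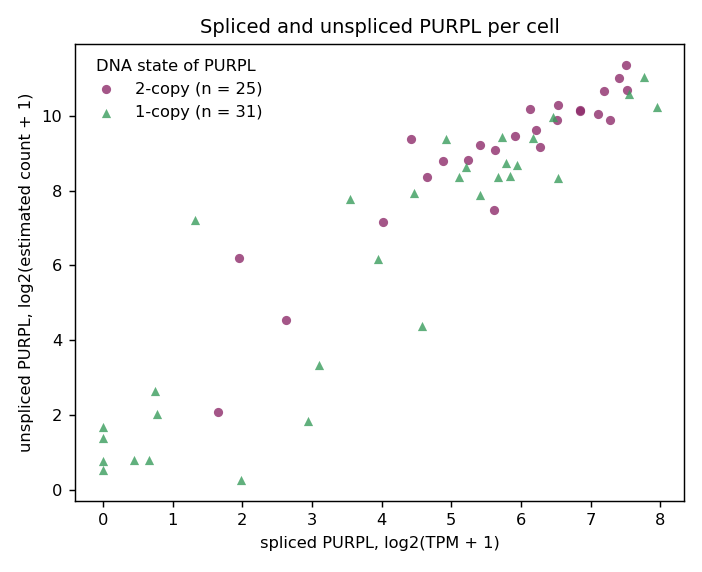
Unspliced against spliced PURPL in each cell, as log2(estimated count + 1) and log2(TPM + 1), for 25 cells in which the PURPL locus was 2-copy (purple circles) and 31 in which it was 1-copy (green triangles). The cells follow 1 band (Spearman rho 0.92, n = 56), and the lower left corner holds 1-copy cells.

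KCNQ1OT1 was the other member with both states. Its median was 1.37 TPM in 42 2-copy cells (0.56 to 3.78) and 1.48 TPM in 11 1-copy cells (0.97 to 2.95), and every 1-copy cell lay within the range of the 2-copy cells. The difference did not pass the test (permutation test of the rank sum, two-sided, 100000 permutations, p = 0.927). The shift between the states was -0.01 TPM, with a 95% interval from -0.51 to 0.48 TPM, against a median level of 1.37 TPM at 2 copies. Copy state and library set were unevenly mixed, with 20 of 29 called cells 2-copy among those numbered up to 65 and 22 of 25 later. Within the earlier set the medians were 2.41 TPM (20 cells) and 1.94 TPM (8 cells), and within the later set 1.23 TPM (22 cells) and 1.27 TPM (3 cells).

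Cells numbered up to 65 (n = 29) and those with higher numbers (n = 27) differed as library sets, although the labels name no batch. The cut was found in earlier work on these same cells, from mitochondrial RNA and total unspliced counts. Mitochondrial RNA had medians of 11.1% and 3.28% of TPM, and total unspliced counts had medians of 812254 and 568578. The p-values below take cells as replicates and are not independent of a cut drawn from the same RNA. Median replication scores were 50.5% and 56.6%. MALAT1 was lower in the later set, with medians of 3373 TPM (993 to 8152) and 1757 TPM (754 to 6585), which gave -0.84 for the later minus the earlier mean of log2(TPM + 1) (95% interval -1.18 to -0.49, limma adjusted p = 0.000624). Only 1 of 27 later cells exceeded the median of the earlier cells. KCNQ1OT1 fell from a median of 2.17 TPM to 1.21 TPM, a log2 difference of -0.55 (limma adjusted p = 0.0425). NEAT1 fell from 142 TPM to 76.8 TPM, a log2 difference of -0.96 (limma adjusted p = 0.0480).

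These 3 of 6 members are to be read beside the 3.55% of 17132 genes that were called lower in the later set and the 4.44% called higher. SNHG1 (931 and 748 TPM), GAS5 (447 and 360 TPM) and PURPL (47.8 and 33.7 TPM) had lower medians in the later set without passing the test (limma adjusted p = 0.136, 0.614 and 0.677). The calls for NEAT1 and KCNQ1OT1 were near the threshold. NEAT1 lost it with a pseudocount of 0.1, without the filter on low genes, with the replication score as a covariate and by the Wilcoxon test (adjusted p of 0.0649 to 0.117), and KCNQ1OT1 with the pseudocount and with the covariate (0.110 and 0.0926). MALAT1 was called in each alternative. What the sets are is not known here, so preparation, batch and cell state cannot be told apart.

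**Figure D4:**
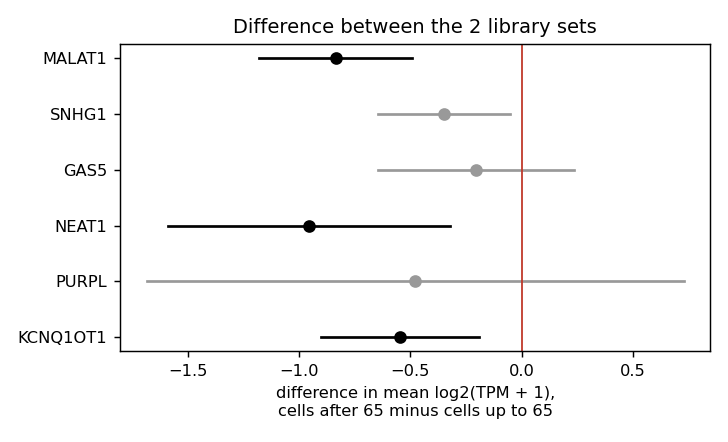
Difference in mean log2(TPM + 1) between the 27 cells after number 65 and the 29 cells up to 65, with 95% intervals from limma. MALAT1, NEAT1 and KCNQ1OT1 (black, adjusted p under 0.05) lie below 0, and the intervals of PURPL and GAS5 (grey) cross it.

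Other RNAs of these pathways divided in the same contrast. Of 18 long non-coding RNAs on a list of nuclear and regulatory transcripts that includes 5 of the members, 15 were tested, 7 were called lower in the later set and 0 higher, with a median log2 difference of -0.55 against 0.01 over all genes. Beside MALAT1, NEAT1 and KCNQ1OT1 these were TUG1 with medians of 208 and 140 TPM, LINC-PINT with 13.6 and 3.99 TPM, the imprinted H19 with 30.95 and 11.5 TPM, and SNHG14, a long snoRNA host, with 17.6 and 7.76 TPM. CRNDE (median 123 TPM) was not called.

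Of 18 messenger RNAs with a terminal pyrimidine start, which encode ribosomal proteins and translation factors and lie in the cytoplasm, all 18 were called higher in the later set, with a median log2 difference of 0.73. EEF1A1, the elongation factor, had medians of 6081 and 11563 TPM, RPLP0 2371 and 4166 TPM, RPS12 2545 and 4328 TPM and RPL5 1597 and 2652 TPM. Near-identical pseudogenes of such genes make single values uncertain. The 22 snoRNA host genes went both ways, with 5 called higher and 2 lower. SNHG29 was higher in the later set (624 and 1007 TPM), and SNHG3 lower (182 and 88.7 TPM). SNHG8 (387 and 391 TPM) was not called.

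Proteins that work with these RNAs were measured through their messenger RNAs. Of 12 nuclear speckle genes, 3 were called lower in the later set and 1 higher. SRRM2, a scaffold of speckles, had medians of 684 and 411 TPM, SON, the other scaffold, 238 and 171 TPM, and the splicing factor SRSF5 229 and 132 TPM, while SRSF3 was higher (309 and 482 TPM). SRSF1 and SRSF2, with medians of 307 and 391 TPM over all cells, were not called. Of 11 paraspeckle genes, 2 were called higher, NONO (1181 and 1511 TPM) and NUDT21 (142 and 181 TPM), and SFPQ was called lower (917 and 601 TPM). TARDBP (median of 436 TPM) was not called. Across the 56 cells MALAT1 had a median rho of 0.07 with the 12 speckle genes, and NEAT1 one of -0.04 with the 11 paraspeckle genes, against 0.02 and 0.00 over 12302 genes.

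MYBBP1A, the partner of PURPL, was called lower in the later set (60.9 and 28.7 TPM), and ELAVL1, an RNA-binding protein, was not called (54.5 and 67.4 TPM). PURPL had rho of 0.01 with MYBBP1A and 0.00 with ELAVL1. At the KCNQ1 domain, KCNQ1 was listed with a median of 0 TPM and a value above 0 in 23 cells. Of 10 tested genes of the domain and its neighbors, CDKN1C, a cyclin-dependent kinase inhibitor silenced by KCNQ1OT1 in mouse, was called higher in the later set (2.92 and 14.4 TPM) and H19 lower. CD81, NAP1L4 and CARS1 (164, 141 and 101.8 TPM) were not called.

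Along the replication score none of the 6 members passed the test. A generalized additive model of log2(TPM + 1) on the score, run for each gene, called 0.0409% of 17132 genes. KCNQ1OT1 came nearest, with a Spearman rho of -0.34 (n = 56, mgcv adjusted p = 0.406), followed by GAS5 with -0.24 (adjusted p = 0.541) and NEAT1 with -0.15 (0.655). For SNHG1 rho was -0.09, for MALAT1 0.09 and for PURPL 0.07. Within the library sets rho for KCNQ1OT1 was -0.09 and -0.16, closer to 0 than the pooled value. MALAT1 had 0.46 in the earlier and 0.17 in the later set. A difference in slope between the sets did not pass the test for any member (limma interaction, adjusted p of 1.00), and 0 genes were called for that term, with 825 at an unadjusted p under 0.05. No gene of the lists named here was called along the score.

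The members formed pairs in their variation over cells. The 2 snoRNA hosts GAS5 and SNHG1 had a rho of 0.55 (0.50 in the earlier and 0.58 in the later set). MALAT1 had a rho of 0.51 with NEAT1 (0.31 and 0.60) and of 0.54 with KCNQ1OT1 (0.40 and 0.32). MALAT1 and GAS5 had a rho of 0.02 in the earlier set and of -0.73 in the later. GAS5 lies on the long arm of chromosome 1. In the later set 88.6% of 527 expressed genes on this arm were positively related to GAS5. In that set 90 of 528 were positively related to MALAT1 and 80 of 528 to NEAT1. In the earlier set these values were 76.7% for GAS5, 201 of 528 for MALAT1 and 263 of 528 for NEAT1. Over all genes, the positive share for MALAT1 was 50.5% in the earlier and 58.8% in the later set. For NEAT1 it was 46.3% and 54.2%. The part of the long arm of chromosome 1 in the pair values was not tested. PURPL had pooled values from -0.26 with GAS5 to 0.29 with MALAT1. With SNHG1 it had -0.41 in the earlier set and -0.10 in the later. TPM values share a fixed total, so that the rise of some genes lowers others.

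The genes most like each member, by rho over 56 cells among 12301 others, were set out with the same caution. For MALAT1 they were DDX17, an RNA helicase (0.73), FTX (0.69) and LINC01089 (0.69), and the lowest were RPS29 (-0.72), PCLAF (-0.70) and RPL30 (-0.69). For NEAT1 they were BICD1 (0.59), DDX17 (0.58) and PCBP1-AS1 (0.58), with RAP1B (-0.57), RPL14 (-0.55) and MRPS35 (-0.55) lowest. KCNQ1OT1 had RP11-237N2.1 and RP11-404C6.6 (both 0.81) and STX17-AS1 (0.80) highest, and RPS15 (-0.77), RPS16 (-0.73) and HNRNPA1 (-0.73) lowest. KCNQ1OT1 was positively related to all 14 other expressed RNAs of the long non-coding list, with a median rho of 0.28. It also had a rho of 0.90 with the total of unspliced counts in the earlier set, but 0.10 in the later set.

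PURPL had no close companion. Its highest values were 0.49 for CRACR2A, 0.47 for GOLGA8B, which has a near-identical copy, and 0.47 for METAP1D. The lowest was -0.57 for NR4A1, an immediate early transcription factor, followed by ZP3 (-0.53) and ZNF70 (-0.49). With the mean of each library set removed, rho for NR4A1 was -0.60. PURPL was also lower in cells in which more genes reached 1 TPM (rho -0.39, and -0.34 and -0.31 within the sets), a value below that of all but 0.171% of expressed genes.

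GAS5 was most like CLK2 (0.68), a kinase of splicing factors, GALNT2 (0.63) and SMG5 (0.63), which acts in nonsense-mediated decay. All 3 lie, like GAS5, on the long arm of chromosome 1. The lowest were PLS3 (-0.66), FBLN1 (-0.65) and UBE2E3 (-0.63), which lie elsewhere. After this had been seen, the arm was examined as a whole. The correlation with GAS5 was positive for 90.3% of 527 expressed genes of this arm, with a median of 0.24. On the other 23 chromosomes or arms the median ran from -0.07 to -0.02, and on the short arm of chromosome 1 it was -0.02 over 686 genes. The positive share on the long arm was 76.7% in the earlier and 88.6% in the later library set.

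The RNA of this arm divided the cells into clusters. Without GAS5, it made up 2.81% to 3.81% of TPM in 28 cells and 4.32% to 5.80% in the other 28, with no cell between. Each library set held cells of both kinds, 12 and 17 in the earlier and 16 and 11 in the later. GAS5 ran from 148 to 541 TPM in the cells with the lower share and from 209 to 1545 TPM in those with the higher. In the earlier and later sets, rho with the share was 0.48 and 0.67 for GAS5, -0.32 and -0.50 for MALAT1, and -0.14 and -0.45 for NEAT1. It was 0.21 and -0.19 for KCNQ1OT1, 0.22 and 0.24 for SNHG1, and -0.15 and -0.06 for PURPL. Within the clusters of lower and higher share, rho with the share was -0.11 and -0.22 for GAS5 and 0.57 and -0.60 for MALAT1. For NEAT1 it was 0.14 and -0.66, for KCNQ1OT1 0.39 and -0.81, for SNHG1 0.18 and -0.12, and for PURPL 0.42 and -0.05. The share also differed between the library sets within each cluster, so these values do not separate the arm from the sets. For the replication scores the authors left out chromosomes that were abnormal, as well as the X, and chromosome 1 is among those listed for HAP1. Their Methods do not say in what way it is abnormal. DNA states of chromosome 1 were not analysed here, and whether the clusters differ in copies of the arm was not tested.

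SNHG1 lies on chromosome 11, and its closest gene was GAS5, followed by PTPRG (0.52) and CLK2 (0.52), with FBLN1 (-0.55), PPP1CB (-0.55) and ARPIN-AP3S2 (-0.54) lowest. It ran from 302 to 1110 TPM in the cells with the lower share of the arm and from 371 to 1855 TPM in the others. GAS5 and SNHG1 were related within each cluster, with rho of 0.42 and 0.57 (28 cells each).

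**Figure D5:**
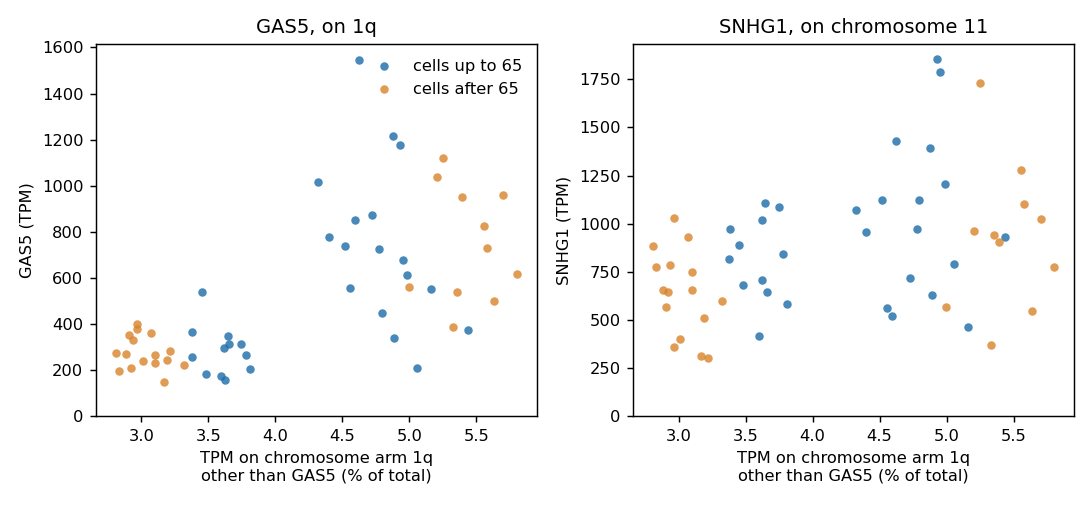
GAS5 (left) and SNHG1 (right), in TPM, against the share of all TPM that comes from genes on the long arm of chromosome 1 other than GAS5, for 56 cells colored by library set. The cells fall on either side of an empty stretch from 3.81% to 4.32%, and all cells above 541 TPM of GAS5 lie to the right of it.

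Small RNAs within SNHG1 were hardly seen. The snoRNAs SNORD22, SNORD25, SNORD26, SNORD27, SNORD28 and SNORD30 overlap SNHG1 and had a median of 0 TPM each. One of the SNORD22 entries was above 0 in 22 cells, and the remaining entries in 1 to 13. On the opposite strand, GAS5-AS1 (median 0 TPM) and ZBTB37 (6.12 TPM) overlap GAS5. CTD-3007L5.1 inside PURPL, AP000769.7 inside MALAT1 and MIR612 inside NEAT1 were at 0 in every cell. Entries without a name that overlap MALAT1, NEAT1 or KCNQ1OT1 had medians of 0 TPM. Use of strand in the counting is not stated, and reads of overlapping genes cannot be told apart.

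Markers were read for the identity of the cells. BCR and ABL1, which are fused in the leukemia line from which HAP1 derives, had medians of 13.1 and 6.25 TPM. All 6 blood markers had a median of 0 TPM, with HBB and CD3E at 0 in every cell, and their summed level ran from 0 to 59.02 TPM. Of 5 fibroblast markers PDGFRA (median 8.09 TPM) and of 4 epithelial markers KRT18 (23.8 TPM) and KRT8 (1.18 TPM) were above a median of 1 TPM, with summed levels of 0 to 85.6 and 1.12 to 111.7 TPM. Between 12045 and 15028 genes per cell reached 1 TPM.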

How the data were processed

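Single mid-S HAP1 cells were profiled for DNA and RNA. The authors aligned DNA reads to hg38 (BWA 0.7.17-r1188, per the processing notes), called 40-kb bins 1-copy or 2-copy with AneuFinder and left out chromosomes 1, 15 and X. RNA reads were counted with the ramdaq pipeline (Hisat2, featureCounts, GENCODE). The deposited TPM sum to a common total per cell, so read depth cannot be seen in them, and the gene length behind them is not stated. The spliced table equals the gene TPM. The deposited unspliced values are estimated counts (gene-body minus exon reads, negatives set to 0), with totals of 425181 to 1353931 per cell. The RNA came from the supernatant, so nuclear RNA is partly lost. The deposited copy states are coded as another kind of value, 2-copy, 1-copy or no call.

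The members, lists and tests were chosen with earlier results of these data known. Copy states were compared in 55 cells scored 40% to 70%, for genes above 0 in over 50% of cells, with a call in at least 50% and neither state in over 80%, by two-sided Wilcoxon tests (scipy 1.17.1) and, as an alternative on rounded counts, edgeR 4.0.16. Progression used mgcv 1.9.3 on log10(TPM + 1), and library sets limma 3.58.1 on log2(TPM + 1). Both covered 17132 genes with at least 1 TPM in 20% of cells, with Benjamini-Hochberg adjustment. A pseudocount of 1 understates changes of low genes. Correlations over cells are Spearman's and descriptive. Scripts were tested on simulated data. Genes named beside the members were those overlapping them, the 4 of each list with the highest median and any called along the score, and the 3 highest and 3 lowest by rho. Other named genes, and the examination of chromosome arms, were chosen after their values were seen. Some genes that these rules name, and results that need them, are not reported here.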

Additional observations from a re-analysis of the deposited data

How the results depend on the processing

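No paired analysis was possible because each cell has 1 copy state per gene and 1 library set. Counts of genes moved with the filters. The spliced copy contrast gave 210 genes at an unadjusted p under 0.05 and 380 with no expression filter. The unspliced contrast gave 212 genes, 128 for genes detected in over 80% of cells, 380 with no expression filter, 119 with neither state in over 70% of cells, and 571 by edgeR. The progression test gave 7 genes, 39 without the filter on low genes and 2 with the library set as a term. The library set difference gave 955 to 1368 genes. Its split of 760 higher and 608 lower genes became 493 and 806 with TPM rescaled without mitochondrial genes, and 629 and 738 by the Wilcoxon test. A pseudocount of 0.1 moved the median of all genes from 0.01 to 0.12.

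No member was called along the score in any alternative, and all 6 were lower in the later set in every alternative. SNHG1 passed the test there only with TPM rescaled without mitochondrial genes (log2 difference -0.47, adjusted p = 0.0425). The difference of KCNQ1OT1 between copy states changed sign, to 0.055 TPM in cells scored 45% to 65%, and on the log2(TPM + 1) scale to 0.0836 with the set mean subtracted and 0.0873 after removal of the score, without passing the test in any of them. Median levels of the members moved by less than 1 SD. With no read depth in TPM, a value of 0 has no stated detection limit.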
